A study of Mus musculus with 4 samples.

Results

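Exon skipping events are exons that some mRNAs of a gene keep and others leave out, and the 1016 events described here are all rows of that type in the deposited splicing table, with 1 exact repeat dropped. They made up 65.3% of the 1555 listed events and fell in 816 of the 1173 genes with any listed event. The events came from poly(A) RNA of splenic follicular B (FOB) cells of C57BL/6 mice, sorted as B220+CD93-CD23highCD21low, with 2 WT (Hnrnpf fl/fl without Cre) and 2 Hnrnpf KO (Hnrnpf fl/fl with Cre) libraries and a labelled age of 7 weeks. All 4 libraries carried the floxed Hnrnpf alleles, and the Hnrnpf KO libraries also carried a Cre that deletes in the B lineage and leaves some cells undeleted. Whether cells of several mice were combined in a library is not given in the sources used here. The p-values of the abundance comparison therefore measure the spread between these 4 samples, which may be technical.

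A cassette exon is joined to its neighbours when the splice sites at both of its ends are recognised, and it is skipped when the spliceosome joins the flanking exons directly. RNA-binding proteins of the hnRNP family bind the pre-mRNA and shift this choice. HnRNP F, with its relatives hnRNP H1 and hnRNP H3, is known for binding runs of G (G-tracts), many of which lie in exons or just behind the 5′ splice site of an intron. The table gives for each event an inclusion level difference, the mean inclusion level of WT minus that of Hnrnpf KO. An inclusion level is estimated from the reads at the event, as the fraction of the mRNA spanning it that keeps the exon. Other mRNA of the gene does not enter it. A positive difference means that the exon was less included in Hnrnpf KO FOB cells. The table lists events that had passed limits on this difference and on its false discovery rate (FDR) in the same libraries, so the differences are given here as a description without a test. It names the gene of an event but not the exon, and it holds no value per library.

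The sequence around an event could be shown where a gene had 1 listed event and 1 annotated cassette exon, which held for 178 genes in the GENCODE M21 annotation of GRCm38. The exon of the event was taken to be that cassette exon, and 113 of the 816 genes had no annotated cassette exon at all, so such a match can be wrong. The first 60 bases of the intron after the exon are printed below for the matched coding exons of genes averaging 500 counts or more whose window was covered by an annotated transcript and was not annotated as untranslated region. Capitals mark each run of 3 or more G (GGG), read on the transcript's strand. The less included exons come first, then the more included ones.
Rgs14, chr13:55378399-55378458, plus strand: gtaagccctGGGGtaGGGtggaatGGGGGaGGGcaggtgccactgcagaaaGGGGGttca
Eps15l1, chr8:72358253-72358312, minus strand: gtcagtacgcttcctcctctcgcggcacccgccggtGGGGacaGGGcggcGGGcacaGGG
Idh3g, chrX:73782238-73782297, minus strand: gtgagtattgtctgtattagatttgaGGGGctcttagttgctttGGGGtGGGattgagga
Vars2, chr17:35660154-35660213, minus strand: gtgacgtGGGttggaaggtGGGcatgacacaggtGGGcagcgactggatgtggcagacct
Prr3, chr17:35978651-35978710, minus strand: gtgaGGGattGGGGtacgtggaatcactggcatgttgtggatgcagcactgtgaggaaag
Surf1, chr2:26915895-26915954, minus strand: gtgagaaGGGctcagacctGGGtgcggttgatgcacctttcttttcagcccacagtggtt
Zfp746, chr6:48066369-48066428, minus strand: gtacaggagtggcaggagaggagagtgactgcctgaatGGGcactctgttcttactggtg
Eif4h, chr5:134624381-134624440, minus strand: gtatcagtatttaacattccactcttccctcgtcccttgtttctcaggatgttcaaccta
Nol9, chr4:152046036-152046095, plus strand: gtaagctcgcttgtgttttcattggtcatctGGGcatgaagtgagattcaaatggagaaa
Xrn1, chr9:95974464-95974523, plus strand: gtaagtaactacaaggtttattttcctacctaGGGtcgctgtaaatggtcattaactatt
The 7 introns after less included exons held 5, 4, 3, 3, 2, 2 and 1 G-tracts in this order, and the 3 introns after more included exons held 0, 1 and 1. The windows of Hnrnpab, with 2 G-tracts, and Mettl14, with 0, met the other conditions but are annotated in part as untranslated region and are not printed. Both belonged to less included exons.

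Counted over every matched exon whose window was covered, 20 of 23 less included exons (87.0%) had a G-tract in the first 60 intron bases, against 4 of 10 more included exons (40.0%). The mean number of G-tracts was 1.96 and 0.5. Among genes with 1 annotated cassette exon and no listed exon skipping event, 259 of 475 exons (54.5%) had a G-tract, with a mean of 1.10. The order of the groups was the same in the first 30 bases, with 16 of 24 less included exons, 2 of 10 more included exons and 171 of 486 exons without a listed event, and in the first 100 bases, with 19 of 20, 6 of 10 and 276 of 424. The match to a single exon was then dropped, and every cassette exon of a gene was counted. A G-tract followed 189 of 286 cassette exons (66.1%) of genes whose events were all less included, 66 of 133 (49.6%) of genes whose events were all more included, and 1087 of 2039 (53.3%) of genes without a listed event. The shares were 47.1%, 29.2% and 33.5% in the first 30 bases and 76.9%, 68.9% and 66.3% in the first 100, where the genes with more included events lay above those without a listed event. The base composition of the windows moved with the groups. Their median GC content was 53.3% after less included exons, 40.8% after more included exons and 48.3% after exons without a listed event, and its part in the difference was not tested. Runs of 3 or more C (CCC) stood in 11 of the 23 windows, 3 of the 10 and 229 of the 475. Runs of 3 or more T (TTT) stood in 9 of the 23 (39.1%), 8 of the 10 (80.0%) and 303 of the 475 (63.8%), in the opposite order to the G-tracts. In the last 60 bases of the intron before the exon, 13 of 21 less included exons, 5 of 9 more included exons and 206 of 458 exons without a listed event had a G-tract.

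**Figure D1:**
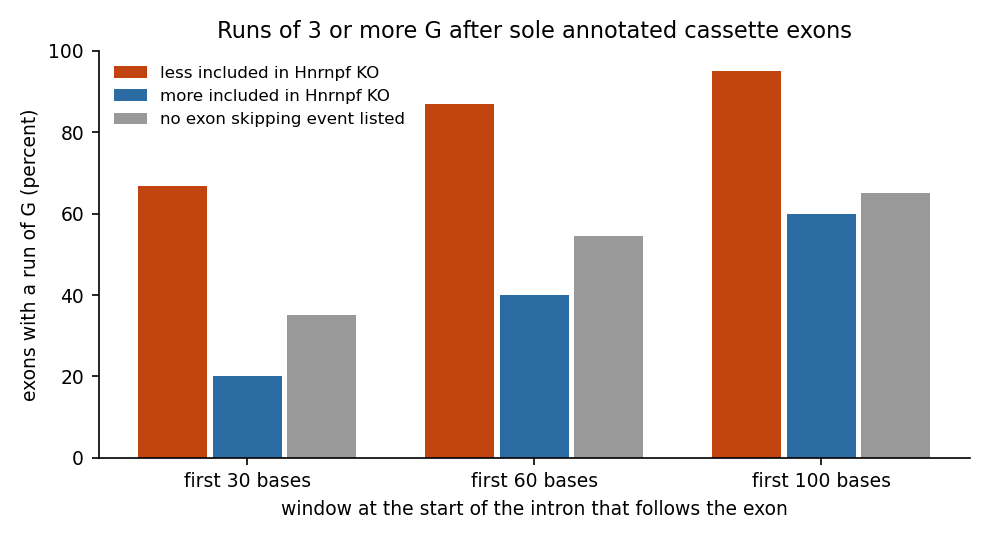
Bars give the percent of sole annotated cassette exons with at least 1 run of 3 or more G in the first 30, 60 or 100 bases of the following intron, for exons less included in Hnrnpf KO, more included in Hnrnpf KO, and of genes without a listed exon skipping event. In the first 60 bases the values are 87.0%, 40.0% and 54.5%, from 23, 10 and 475 exons, with no test.

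Within the exons themselves G-tracts stood at close shares in the groups, with no test. A run of 3 or more G stood in 78 of 118 less included matched exons (66.1%), 40 of 60 more included ones (66.7%) and 65.9% of the exons of genes without a listed event. The median exon length was 105 bases for less included and 99.5 bases for more included exons, against 107 bases without a listed event. The length was a multiple of 3, which keeps the reading frame, in 40.7%, 40.0% and 42.6%. Matched exons lay wholly in coding sequence for 75 less included (63.6%) and 32 more included events (53.3%), against 58.5% without a listed event. The GC content of the exons had medians of 50.7%, 49.0% and 50.0%.

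Of the 1016 events, 656 (64.6%) were less included and 360 more included in Hnrnpf KO FOB cells. The less included events fell in 542 genes and the more included ones in 313. The median absolute difference was 0.204 for less included events, with quartiles of 0.145 and 0.309, and 0.192 for more included events, with quartiles of 0.135 and 0.324. The events nearest to the limits of the table had a difference of 0.1 in size and an FDR of 0.0498. A difference of 0.5 or more was listed for 59 less included and 47 more included events. At the lowest FDR the less included events took a larger part, since 29 less included events (4.42%) and 2 more included events (0.556%) had an FDR listed as 0. The 2 more included events were those of Hnrnph1, at −0.279, and Hnrnpa2b1, at −0.156.

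**Figure D2:**
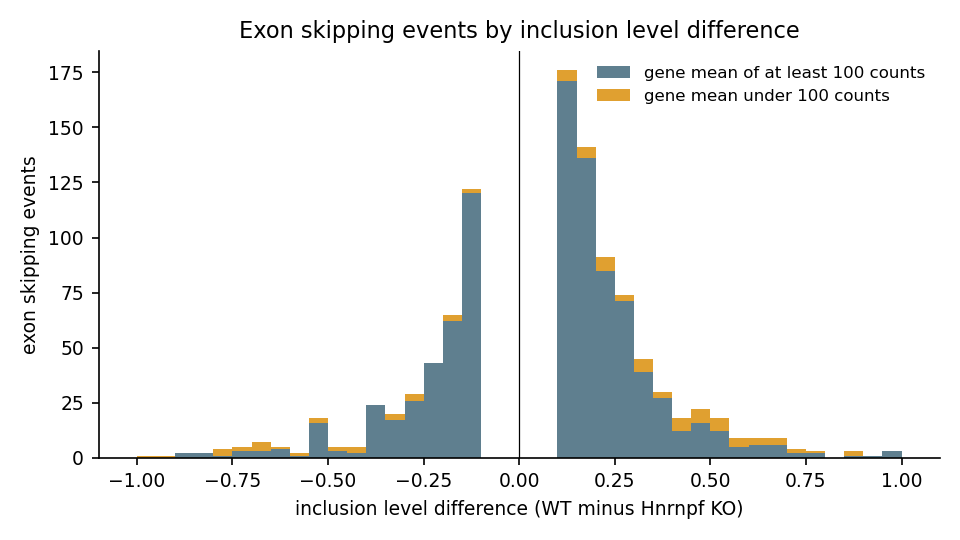
The histogram counts exon skipping events by inclusion level difference (WT minus Hnrnpf KO) in steps of 0.05, stacked by whether the gene averaged 100 counts or more. Less included events, on the right, number 656 and more included events 360, and the empty centre is the table's limit of 0.1.

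The size of the difference moved with the depth of the gene. Genes with a mean under 100 counts over the 4 libraries held 92 events with a median absolute difference of 0.438. The median was 0.221 for the 270 events of genes with 100 to 500 counts, 0.191 for the 384 events with 500 to 2000 counts and 0.167 for the 270 events at 2000 counts or more. The share of less included events was 66.3%, 63.7%, 61.7% and 68.9% in these 4 classes. Of the 106 events with a difference of at least 0.5, 36 lay in genes under 100 counts. The 82 member genes under 100 counts included 22 that overlap a gene with at least 100 counts, and for these the reads of an event may come from the other gene. Gm20489 had 0 counts in every library and a listed difference of 0.162 at an FDR of 0, and it overlaps Il2rg, the common gamma chain of cytokine receptors. Gm20489 was singled out after its values were seen.

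**Figure D3:**
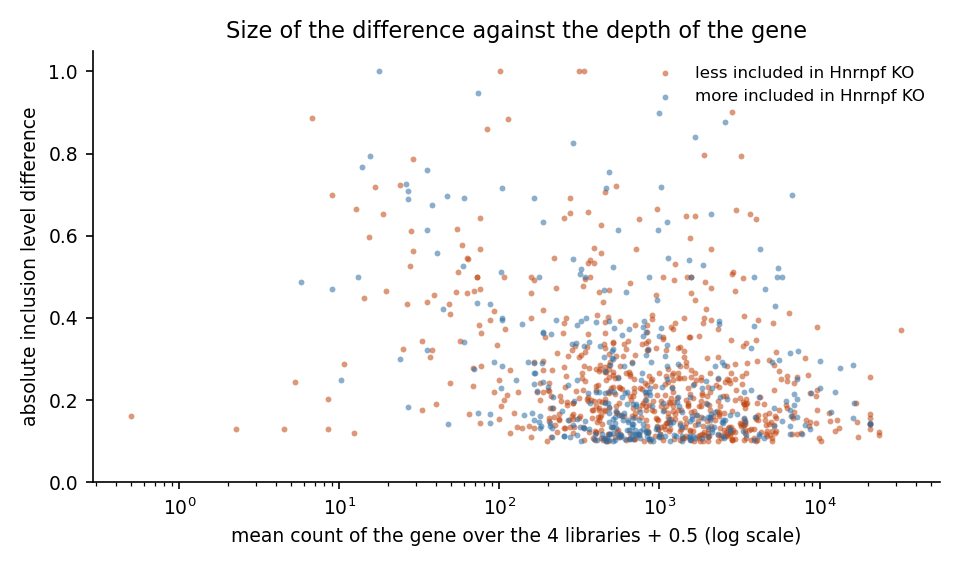
Each point is an exon skipping event, with the mean count of its gene over the 4 libraries plus 0.5 on a log axis and the absolute inclusion level difference on the other, coloured by direction. Events of genes under 100 counts have a median difference of 0.438, and those of genes at 2000 counts or more a median of 0.167.

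Among genes that averaged 100 counts or more, the largest losses of inclusion were complete by the table. Fbxo34, an F-box protein, Lca5, a ciliary protein, and Ccdc66 each had an event with a difference of 1. Nap1l4, a histone chaperone, followed at 0.901, Wdr78 at 0.883, Pfkp, the platelet-type phosphofructokinase of glycolysis, at 0.797, and Sh2d3c, an adaptor with an SH2 domain, at 0.794. The list closed with Emid1 at 0.721, 1110038B12Rik at 0.707 and Lpin1, a phosphatidate phosphatase, at 0.691. Lca5 and Wdr78 had mean counts of only 101 and 112.0, whereas Nap1l4 had 2845 and Sh2d3c 3224. The largest gains of inclusion were those of Gm11346 at −0.898, Cdk19, a kinase of the Mediator complex, at −0.877, and Sft2d1 at −0.84. Nkiras1, an inhibitor of NF-κB signalling, followed at −0.825, Thoc7, a subunit of the mRNA export complex THO, at −0.755, and Nf1, the Ras GTPase activator neurofibromin, at −0.718. The other 4 were Rnf185 at −0.716, Slc22a17 at −0.715, Trrap, a scaffold of histone acetyltransferase complexes, at −0.698, and Cdc14b at −0.691. In Sft2d1 the gain stood beside a second event of the opposite direction, at 0.648.

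Most genes had 1 event. There were 661 such genes, 125 with 2 events, 20 with 3, 7 with 4, 2 with 5 and 1 with 7. Of the 155 genes with at least 2 events, 80 had less included events only, 36 had more included events only and 39 had both. Events of a gene can share exons, so they are not independent. Sipa1, a GTPase activator for Rap, had the most, with 6 less included events between 0.13 and 0.256 and 1 more included event at −0.141. 2410002F23Rik had 5 events, all less included, from 0.106 to 0.466, and Ftx, a non-coding RNA of the X-inactivation centre, had 4 less included events and 1 more included event at −0.375. Both Tmem179b, from −0.106 to −0.191, and Slc22a17, a lipocalin receptor, from −0.283 to −0.715, had 4 events that were all more included. Zfp644, Nudt13 and Sfi1 had 3 less included events and 1 more included event each, while BC051142 and Fbrsl1 had 1 less included and 3 more included ones. Another event type was listed for 110 of the 816 genes. Retained introns occurred in 42 of them, which was 5.15% of genes with a skipped exon and 19.7% of the 213 genes with a retained intron.

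Cd40, the costimulatory receptor through which T cells activate B cells (ENSMUSG00000017652, chr2:165055627-165072948, plus strand), had 3 events, and all were less included in Hnrnpf KO, at 0.161, 0.171 and 0.232. The table does not say which exon each value belongs to. Exons 6 and 7 of Cd40 are shown because both are annotated cassette exons of the gene, beside another of 114 bases near its start, and capitals mark runs of 3 or more G.
Cd40 exon 6, chr2:165066503-165066564, plus strand: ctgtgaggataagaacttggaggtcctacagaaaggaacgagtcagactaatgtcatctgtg
Cd40 start of intron 6, chr2:165066565-165066624, plus strand: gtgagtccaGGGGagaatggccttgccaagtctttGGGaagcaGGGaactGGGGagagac
Cd40 exon 7, chr2:165069629-165069715, plus strand: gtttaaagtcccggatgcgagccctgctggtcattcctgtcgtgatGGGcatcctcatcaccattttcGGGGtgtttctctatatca
Exon 6 held no G-tract, exon 7 held 2, and the first 60 bases of intron 6 held 4. The first 60 bases of intron 7 (chr2:165069716-165069775), not printed, held 3. The reads counted for Cd40 were 2352 and 2567 in WT against 2016 and 2427 in Hnrnpf KO libraries, or 139 ± 6.04 and 132 ± 5.19 CPM (counts scaled to library size, mean ± SD, n = 2 each), and the CPM of the groups overlapped. On the log2 scale it differed by −0.08 ± 0.06 (standard error, SE), with an adjusted p of 0.51 (quasi-likelihood test of edgeR, adjusted by Benjamini-Hochberg over all tested genes). Each log2 fold change below comes from this same fit and compares Hnrnpf KO with WT.

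Other genes of CD40 and NF-κB signalling were listed too. The list of 31 such genes held 6 with an event, and 8 of their 10 events were less included. Traf3, an adaptor that restrains non-canonical NF-κB signalling, had 2 less included events at 0.159 and 0.346. Chuk, which encodes the kinase IKKα, had 1 at 0.197, Tank had 1 at 0.129 and Azi2 had 1 at 0.107, all less included. Both more included events were in Nkiras1, at −0.825 and −0.543. By edgeR 0 of these 6 genes passed an adjusted p of 0.05 in abundance, 2 had an unadjusted p under 0.05, and DESeq2 called 0. Over all tested genes 6.97% passed by edgeR (4.15% higher and 2.83% lower). These lists of genes were composed with results of these data known, so the share of a list with an event is not set against other genes.

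In B cell receptor signalling, 13 of 50 listed genes had an event, and 13 of the 15 events were less included. The inhibitory receptors Fcgr2b (0.169 and 0.297) and Siglecg (0.194) were among them. So were the kinases Araf (0.64), Csk (0.151), Map4k1 (0.152) and Tec (0.141), the phospholipase Plcb2 (0.258), the calcium channel Itpr1 (0.151) and the adaptors Grap2 (0.413), Lat2 (0.104 and 0.122) and Sh3bp2 (0.108). Both exceptions were more included, Shc1 at −0.161 and Braf at −0.147. Fcer2a, which encodes the sort marker CD23 and was added after its values were seen, had 2 less included events at 0.116 and 0.122, both with an FDR listed as 0. In abundance 3 of the 13 genes rose and 1 fell in Hnrnpf KO past an edgeR adjusted p of 0.05. Over the whole list of 50 genes 4 rose and 8 fell, and of all tested genes 4.15% rose and 2.83% fell. These shares were not matched for depth. Grap2 counted 5221 and 6119 reads in WT against 6506 and 7911 in Hnrnpf KO, and rose by 0.42 ± 0.05 (log2, SE) with an edgeR adjusted p of 0.000318. Siglecg, with 14170 and 16625 counts against 16868 and 19908, rose by 0.33 ± 0.05 (adjusted p = 0.000923). Fcgr2b, with 4184 and 4657 against 4934 and 5667, also rose by 0.33 ± 0.05 (adjusted p = 0.00156). Shc1 fell from 103 ± 0.774 to 82.2 ± 3.86 CPM (mean ± SD, n = 2 each), a change of −0.33 ± 0.06 on the log2 scale (edgeR adjusted p = 0.00695), and without Hnrnpf KO replicate 1 the value was −0.28 and no longer passed. In each of these 4 genes both Hnrnpf KO libraries lay outside the range of the WT libraries in CPM, which was so, in either direction, for 49.9% of all tested genes.

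Among 34 B cell transcription factors and regulators, 8 had an event, with 5 less and 5 more included. Zeb1, a zinc finger repressor, was less included at 0.666, Max, the partner of Myc, at 0.132 and Ciita, the activator of MHC class II genes, at 0.11. Stat6, which transmits IL-4 signals, was more included at −0.5 (FDR 0.0231), Foxp1 at −0.319, Mef2d at −0.316 and Ikzf1 at −0.131. Zbtb20 had 1 event at −0.653 and 2 of the opposite direction, at 0.396 and 0.474. In abundance 0 of the 8 passed an adjusted p of 0.05 by edgeR or DESeq2, and 4 had an unadjusted p under 0.05 by edgeR, beside the 6.97% of all tested genes that passed.

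The list of 97 splicing regulators held 25 genes with an event, and here the directions were even, with 14 less and 15 more included events. The more included events contained those of the hnRNP genes Hnrnph1 (−0.279), Hnrnph3 (−0.284), Hnrnpa2b1 (−0.156 and −0.286) and Hnrnpr (−0.129), while Hnrnpab (0.122) and Raly (0.144) were less included. Among other regulators, Acin1 (−0.23 and −0.295), Rbm3 (−0.22), Rbm26 (−0.23), Cwc22 (−0.213), Taf15 (−0.167), Srek1 (−0.149) and Clk1 (−0.139), a kinase of SR proteins, were more included, as was Thoc7. The related kinase Clk4 (0.201), the U1 snRNP-associated Prpf40b (0.276) and Prpf39 (0.132), Cdk11b (0.19), Akap8l (0.162), Nktr (0.154), Slu7 (0.145) and Pcbp4 (0.11) were less included, as were both events of the cyclin Ccnl1 (0.14 and 0.19). Luc7l2, another U1-associated factor, had 1 event each way (0.242 and −0.215).

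Of 94 listed splicing regulators averaging 100 counts or more, 14 rose and 4 fell in abundance at an edgeR adjusted p of 0.05. Of the 25 with an event, 8 rose and 2 fell in Hnrnpf KO, against 4.15% and 2.83% of all tested genes. These shares were not matched for depth. At 2000 counts or more, 14.8% of genes without an event passed in either direction. Hnrnph1 and Hnrnph3, relatives of the targeted gene, were among those that rose. Hnrnph3 counted 1607 and 1767 reads in WT against 2586 and 2920 in Hnrnpf KO, or 95.5 ± 3.64 and 164 ± 0.962 CPM (mean ± SD, n = 2 each), and rose by 0.78 ± 0.06 (log2, SE) with an edgeR adjusted p of 5.72e-06. Hnrnph1 counted 9916 and 12791 reads in WT against 13922 and 16845 in Hnrnpf KO, or 639 ± 47.8 and 912 ± 39.2 CPM, and rose by 0.52 ± 0.06 (edgeR adjusted p = 0.000162). In both genes the 2 Hnrnpf KO libraries lay above the 2 WT libraries in CPM, where 49.9% of all tested genes did not overlap in either direction. Hnrnph1 has a close paralogue, Hnrnph2, and how reads that match both were counted is not given in the sources used here. The targeted gene itself, Hnrnpf, was at 20.1% of its WT level, with 5780 and 6634 reads in WT libraries against 1167 and 1194, and it had no exon skipping event listed. Among the other higher genes were Pcbp4 (log2 fold change 0.60), Prpf40b (0.41), Luc7l2 (0.28), Clk1 (0.21) and Cdk11b (0.20), and the lower ones were Nktr (−0.27) and Taf15 (−0.21). Several of these calls turned on the method or on 1 library. With DESeq2, Pcbp4, Prpf40b, Cdk11b and Taf15 no longer passed. With the replicate number as a block these genes and also Luc7l2 and Clk1 no longer passed. Without WT replicate 1, Pcbp4 (0.57), Luc7l2 (0.18), Cdk11b (0.23) and Taf15 (−0.18) no longer passed. The same held without WT replicate 2 for Pcbp4 (0.64), Prpf40b (0.37), Clk1 (0.15) and Cdk11b (0.17). Without Hnrnpf KO replicate 1 it held for Pcbp4 (0.48), Prpf40b (0.35), Luc7l2 (0.20), Cdk11b (0.18) and Taf15 (−0.20), and without Hnrnpf KO replicate 2 for Clk1 (0.16) and Cdk11b (0.21).

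**Figure D4:**
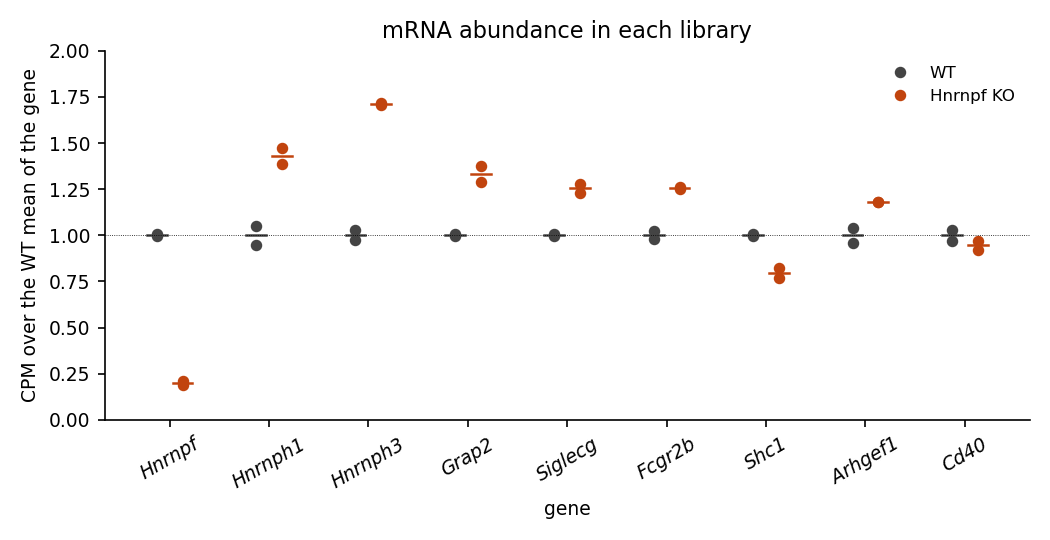
Points are the CPM of each library divided by the WT mean of the gene, grey for WT and red for Hnrnpf KO, with a bar at the mean of 2 libraries. Hnrnpf lies at 20.1% of WT, Hnrnph1, Hnrnph3, Grap2, Siglecg, Fcgr2b and Arhgef1 lie above WT in both Hnrnpf KO libraries, Shc1 lies below, and the Cd40 points overlap.

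The matched exons of several regulators and signalling genes are short coding exons. A few from genes of high count are shown for the size of the change, with runs of 3 or more G in capitals. The count of a gene is not the number of reads at the event, which is not listed. The listed FDR was 0 for Cdk2, 3.11e-08 for Plcb2, 5.9e-12 for Eif4h and 5.69e-13 for Hnrnph3, but 0.0231 for Stat6.
Cdk2, 144 bases, chr10:128699976-128700119, minus strand, difference 0.499: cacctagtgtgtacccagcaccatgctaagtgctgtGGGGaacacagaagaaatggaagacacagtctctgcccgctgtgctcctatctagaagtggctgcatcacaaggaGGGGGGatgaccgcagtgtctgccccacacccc
Plcb2, 69 bases, chr2:118724388-118724456, minus strand, difference 0.258: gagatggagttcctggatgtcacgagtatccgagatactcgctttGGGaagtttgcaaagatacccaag
Stat6, 84 bases, chr10:127648106-127648189, plus strand, difference −0.5: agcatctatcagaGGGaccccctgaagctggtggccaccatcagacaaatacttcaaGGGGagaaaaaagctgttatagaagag
Eif4h, 60 bases, chr5:134624441-134624500, minus strand, difference −0.292: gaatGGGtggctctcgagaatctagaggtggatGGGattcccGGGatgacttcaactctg
Hnrnph3, 139 bases, chr10:63018760-63018898, minus strand, difference −0.284: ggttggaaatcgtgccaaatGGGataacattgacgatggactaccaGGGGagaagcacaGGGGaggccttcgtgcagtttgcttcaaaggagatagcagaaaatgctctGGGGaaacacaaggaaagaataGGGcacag
The exons of Cdk2, a cell cycle kinase, Plcb2, Stat6 and Eif4h, a translation initiation factor, are multiples of 3 in length, and that of Hnrnph3 is not. G-tracts stood in exons of both directions, with 2 in Cdk2, 1 in Plcb2, 2 in Stat6, 3 in Eif4h and 5 in Hnrnph3.

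Groups of genes taken from the Gene Ontology terms of the deposited count table were read against all tested genes that averaged 100 counts or more, of which 734 of 9875 (7.43%) had an exon skipping event. The shares are descriptions without a test, and the terms in the table are sparse, since only 11 of the 25 splicing regulators above carried one for RNA splicing. A gene was placed in a group by the wording of its terms alone, so it need not have the activity of the group itself. Regulators of small GTPases, which switch these proteins on or off, had an event in 22 of 187 genes (11.8%), with 24 less and 7 more included events. Arhgef1, a guanine nucleotide exchange factor that B cells express abundantly, was less included at 0.37 and Arap1 at 0.303, both with an FDR listed as 0, and Strn3 was more included at −0.373. Arhgef1 also rose in abundance, from 1720 ± 102 to 2030 ± 0.222 CPM (mean ± SD, n = 2 each), a change of 0.24 ± 0.05 on the log2 scale (edgeR adjusted p = 0.0104), and without Hnrnpf KO replicate 1 the value was 0.24 and no longer passed. Ubiquitin ligation and removal had 29 of 253 genes (11.5%), for example Thap6 at 0.5 and 0.54, Fkbp1a at −0.443, Mul1, a mitochondrial ligase, at −0.393 and −0.102, and Herc3 at 0.354 and −0.103. Cilium and centrosome genes had 31 of 325 (9.54%), and over all members of this group 33 events were less and 11 more included. Whrn was less included at 0.274 and 0.461, Pkd1 at 0.388, and Cntrl, a centriolar protein, had events of −0.428 and 0.121. Whrn also rose in abundance, by 0.34 ± 0.07 on the log2 scale (edgeR adjusted p = 0.00729).

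Chromatin genes had an event in 27 of 317 genes (8.52%), and the 28 members at any count had 24 less and 11 more included events, among them Ash2l, a subunit of histone methyltransferase complexes, at 0.408 and Rcbtb1 at −0.546. DNA repair genes had 15 of 170 (8.82%), and the 17 members at any count had 11 less and 10 more included events. Among them Cdk2 was less included at 0.499 and Emsy at 0.399. Genes of tRNA modification had 5 of 65 (7.69%), and 4 of the 5 events were less included: Trub2, a pseudouridine synthase homologue, at 0.269, Trmt13 at 0.224, Trmt2b at 0.221 and Alkbh8 at 0.201. Genes with a term for RNA splicing had 13 of 228 (5.7%), with 5 less and 9 more included events, among them Ppwd1 at 0.286. The terms did not place Tyw5, a tRNA hydroxylase that rose in abundance (below), in the tRNA modification group. Nor did they place Trmt2a, a tRNA methyltransferase with an event of 0.662 and an FDR listed as 0. Among genes with an event that the terms did place, 0 of 17 for DNA repair and 0 of 5 for tRNA modification changed in abundance at an adjusted p of 0.05. This held by edgeR and DESeq2. By edgeR 2 and 1 of them had an unadjusted p under 0.05, beside the 6.97% of all tested genes that passed.

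Abundance was compared for all genes left by a filter on low counts, 14123 in all, of which 807 had an exon skipping event, and the other 9 member genes had too few counts. With limits of 2-fold and an edgeR adjusted p of 0.05, 5 of the 807 (0.62%) were higher in Hnrnpf KO, against 0.644% of all tested genes, and 0 were lower, against 0.255%. A single member lay lower by 2-fold or more at an unadjusted p under 0.05. DESeq2 called 3 of the 5 and 0 lower. Without the fold limit, 60 members were higher (7.43%, against 4.15% of all tested genes) and 42 lower (5.2%, against 2.83%). Members were more deeply covered than other genes, with a median of 799 counts against 378 over all tested genes, so the shares were also taken within classes of depth. Within genes of 100 to 500 counts, 9.38% of members and 6.28% of other genes passed. The shares were 9.48% and 7.66% between 500 and 2000 counts and 24% and 14.8% at 2000 counts or more, and 4.11% and 2.37% under 100 counts. The median log2 fold change was −0.019 over the members and −0.002 over all tested genes, and 93.3% of members and 87.6% of all tested genes lay within 0.5 of 0 on the log2 scale.

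The direction of the event and that of the abundance were set side by side. Of 496 tested genes whose events were all less included, 40 (8.06%) were higher and 26 (5.24%) lower in abundance, with a median log2 fold change of −0.015. Of 272 genes whose events were all more included, 19 (6.99%) were higher and 16 (5.88%) lower, with a median of −0.021. Over all tested genes 4.15% were higher and 2.83% lower at the same edgeR adjusted p of 0.05. These shares were not matched for depth.

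The 5 genes called higher at 2-fold were mostly of low count. Tyw5, a tRNA hydroxylase, counted 114 and 137 reads in WT against 344 and 411 in Hnrnpf KO, and rose by 1.66 ± 0.13 (log2, SE) with an edgeR adjusted p of 9.7e-06, beside an event of −0.112. Slc22a17, with its 4 more included events, had 52 and 70 counts against 129 and 160 and rose by 1.32 ± 0.21 (adjusted p = 0.00212). Tmem176b had 41 and 55 counts against 91 and 114 (log2 fold change 1.17, adjusted p = 0.0102) and an event of 0.471. In all 3 genes both Hnrnpf KO libraries lay above both WT libraries (49.9% of all tested genes did not overlap in either direction), and each passed an adjusted p of 0.05 under every alternative run. Vegfa, a vascular growth factor, had 15 and 11 counts against 36 and 48 (log2 fold change 1.74, adjusted p = 0.0203) and an event of 0.612. Bicd1, a dynein adaptor, had 26 and 35 counts against 67 and 59 (log2 fold change 1.13, adjusted p = 0.0429) and an event of −0.697. Vegfa no longer passed without WT replicate 2 (log2 fold change 1.44), without Hnrnpf KO replicate 2 (1.62) or with DESeq2. Bicd1 no longer passed without WT replicate 1 (1.03), WT replicate 2 (1.25) or Hnrnpf KO replicate 1 (0.94), with DESeq2 or with a replicate block. Their adjusted p reached 0.101 and 0.215.

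**Figure D5:**
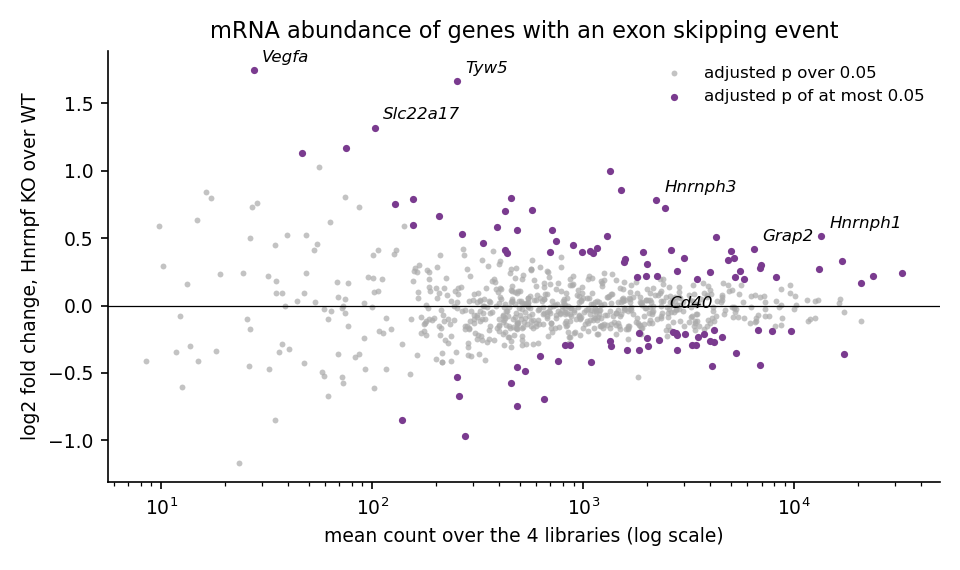
Each point is a gene with an exon skipping event, with its mean count over the 4 libraries on a log axis and its log2 fold change of Hnrnpf KO over WT, coloured where the adjusted p was at most 0.05. Of the 807 tested genes 60 are coloured above 0 and 42 below, and 93.3% lie within 0.5 of 0.

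Genes with an event were long and rich in exons. An event needs an exon with neighbours on both sides, so these traits are in part set by how events are found. The values below were not matched for depth. The tested members had a median of 5750 exonic bases and of 13 exons in their annotated transcript with the most exons, against 3780 bases and 7 exons over all tested genes. They had a median of 8 annotated transcripts against 4, and 86.7% had an annotated cassette exon, against 41.9%. The median level per length was 8.14 FPKM (fragments scaled to exon length and library total) for the members and 6.03 for all tested genes. The share of tested genes with an event rose with depth, from 1.72% under 100 counts and 6.09% between 100 and 500 counts to 7.38% and 9.94% in the classes above.

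The count totals lay between 15698567 and 18908963 per library. Markers of follicular B cells summed to 15400 to 15800 CPM in every library, and those of T cells to 32.7 to 54.0 CPM and of NK cells to 8.43 to 10.6 CPM, with overlapping genotypes in both. Neutrophil markers summed to 5.75 and 8.78 CPM in WT and 14.6 and 24.4 in Hnrnpf KO, and those of dendritic cells to 13.1 and 16.9 against 22.9 and 28.9. None of the listed neutrophil or dendritic cell markers had an exon skipping event. Bcl11b, a T cell factor with a mean of 82.8 counts, had an event of 0.859, and Jchain, a plasma cell gene with a mean of 159.0 counts, had one of −0.17. In bulk RNA fewer cells of a type and less RNA per cell cannot be told apart, and the part of such cells in these events was not tested.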

How the data were processed

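RNA of sorted FOB cells from 2 WT and 2 Hnrnpf KO samples, grouped and numbered by their labels, had been sequenced in paired ends. Per the submitters' processing notes, reads were trimmed with cutadapt 1.9.1, aligned with HISAT2 2.0.1 to GRCm38 and counted with HTSeq 0.6.1, and the strand setting is not given in the sources used here. The deposited counts are whole reads per gene without normalization. FPKM, also deposited, were obtained by the authors by scaling counts to exonic gene size and library total. Splicing events had been called by the authors in all 4 libraries with rMATS turbo. Its FDR is the authors' adjusted p-value, deposited with the inclusion level difference and gene annotation for events that passed their limits, and both columns are used here as a description of the events, with no test on them. The table holds no exon coordinates and no value per library.

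Counts were compared with edgeR 4.0.16 in R 4.3.3 (TMM, filterByExpr, quasi-likelihood F test, Benjamini-Hochberg adjustment over 14123 genes). Limits were an adjusted p of 0.05, with or without a 2-fold change. The alternatives were DESeq2 1.42.0, RLE size factors, other filters on low counts, the replicate number as a block and each library left out. CPM were scaled with TMM factors between 0.9914 and 1.005. Cassette exons are internal exons that another GENCODE M21 transcript skips between the same flanking splice sites, with sequences from the GENCODE transcripts. A window in an intron was known only where another transcript covers it, mostly one that retains the intron. Python 3 was used with pandas.

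The genes named were Hnrnpf and Cd40, genes with at least 4 events, the 10 largest differences in each direction at a mean of at least 100 counts, members called at 2-fold, members of the 4 written lists, and up to 4 genes per Gene Ontology group. Members and lists were chosen with earlier results of these data known. Some items under this rule are not reported here.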

Additional observations from a re-analysis of the deposited data

How the results depend on the processing

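With limits of 2-fold and an adjusted p of 0.05, 5 genes with an exon skipping event passed by edgeR and 3 by DESeq2. The set of genes that passed changed with each library left out, where the lone library of a genotype is assumed to vary like the others. Over all alternatives the lowest log2 fold changes were 1.63 for Tyw5, 1.22 for Slc22a17 and 1.07 for Tmem176b. They were 1.44 for Vegfa and 0.94 for Bicd1. At an adjusted p alone the 102 genes became 77 with DESeq2, 129 with no filter on low counts and 76 to 91 with a library left out. The labels do not say whether equal replicate numbers pair the samples. The correlation over genes of the deviations of equal numbers was −0.07, which cannot exclude a pairing that affects only part of the genes. With the replicate number as a block, 4 genes passed at 2-fold, 68 at an adjusted p alone, and 14 in place of 22 of the 104 named genes. Of 207 refits of the 23 genes whose fold change was given, 167 kept the direction and the side of the threshold, 40 kept the direction but no longer passed, and 0 changed direction. The share of less included events lay between 64.0% (1 event per gene) and 67.3% (FDR under 0.01). The windows of 30 and 100 intron bases were chosen after seeing the data. Depth limits genes under 100 counts.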
